A study of Homo sapiens with 12 samples.

Results

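Chromosome 19 is the human autosome with the densest gene content, and the peaks described here are those that lay on it, taken by their position alone from 9 lists of sites occupied by dCas9. It held 3985 of 58042 peaks (6.87%). The lists came from HEK 293T, a human embryonic kidney cell line, in which catalytically inactive Cas9 (dCas9) was expressed together with 1 of 6 single guide RNAs (sgRNA1 to sgRNA6), using the transfection reagent Fugene6. Cells were harvested 3 days later, and crosslinked, sonicated chromatin was pulled down through the HA tag (chromatin immunoprecipitation sequencing, ChIP-seq). sgRNA1, sgRNA2 and sgRNA3 had 2 libraries each, numbered replicates 1 and 2, and sgRNA4, sgRNA5 and sgRNA6 had 1 each. All groups share the cell line, the dCas9 and the antibody and differ in the guide. The dCas9 library without any guide was not analysed here, so no value below could be set beside a level measured without a guide.

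Cas9 searches DNA for a short protospacer adjacent motif and then pairs its guide with the neighbouring strand. A partial match next to the motif can be enough for binding where the DNA is accessible, and open chromatin is found mostly at promoters and enhancers of active genes. Chromosome 19 has many short genes, a high G and C content and many CpG islands. It also carries large clusters of zinc finger genes of the KRAB family, whose products silence transposable elements. The bodies of these genes are commonly covered by the repressive mark H3K9me3. RefSeq's table for GRCh38.p14 lists 1451 protein-coding genes on chromosome 19, 7.26% of the 19974 on chromosomes 1 to 22 and X, among them 250 of the 517 whose symbol begins with ZNF.

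The number of chromosome 19 peaks differed by orders of magnitude between lists. With sgRNA6 it was 2272 of 33611, with sgRNA4 1057 of 13660, and with sgRNA5 544 of 8346. The replicate 2 lists held 68 of 1278 for sgRNA1, 21 of 570 for sgRNA2 and 19 of 382 for sgRNA3. The replicate 1 lists held only 2 of 96, 1 of 58 and 1 of 41. The peaks of replicate 1 are therefore too few to describe a distribution, and most of what follows rests on sgRNA4, sgRNA5 and sgRNA6, with 1 library each. Read depth is unknown for every list.

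As a share of its list, chromosome 19 took 7.74% with sgRNA4 (95% exact binomial interval 7.30 to 8.20), 6.52% with sgRNA5 (6.00 to 7.07) and 6.76% with sgRNA6 (6.49 to 7.03). The sgRNA4 share lay above the intervals of the other two; the intervals cover counting error only, since a peak is not a replicate. For the replicated guides the share was 3.70% ± 2.29 with sgRNA1, 2.70% ± 1.39 with sgRNA2 and 3.71% ± 1.79 with sgRNA3 (SD, n = 2 each). The replicates of a guide lay further apart than these means (exact permutation test over 6 libraries, p = 0.733; the smallest p that 15 arrangements allow is 0.0667). In 3 of 3 guides the share was higher in replicate 2, by 2.55, 2.14 and 2.04 times for sgRNA1, sgRNA2 and sgRNA3. The replicate 1 shares rest on 2, 1 and 1 peaks, with 95% intervals of 0.253 to 7.32%, 0.0436 to 9.24% and 0.0617 to 12.9%. These intervals include the replicate 2 shares of 5.32%, 3.68% and 4.97%, so counting error alone could cover the difference within each guide.

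Per Mb, sgRNA6 gave 38.5 peaks on chromosome 19 and 10.5 on the other chromosomes without Y, a ratio of 3.65. The ratio was 4.22 for sgRNA4 (17.9 against 4.23 peaks per Mb) and 3.51 for sgRNA5 (9.21 against 2.62). In replicate 2 it was 2.83 for sgRNA1, 1.93 for sgRNA2 and 2.64 for sgRNA3, and in replicate 1 it was 1.07, 0.883 and 1.26, on the 1 or 2 peaks given above. Chromosome 19 thus had the highest density of the 23 chromosomes with sgRNA1, sgRNA4, sgRNA5 and sgRNA6, ranked 2 with sgRNA3 and 3 with sgRNA2.

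Set against gene number, the same chromosome was not first with any guide. There were 72.8 sgRNA4 peaks per 100 protein-coding genes on chromosome 19 and 68.4 over all 23 chromosomes. With sgRNA5 these values were 37.5 and 41.8, and with sgRNA6 157 and 168. Chromosome 19 ranked 7, 15 and 13 of 23 by this measure with sgRNA4, sgRNA5 and sgRNA6, and 18, 22 and 17 with sgRNA1, sgRNA2 and sgRNA3. Across the 23 chromosomes, genes per Mb and peaks per Mb had a Pearson r of 0.935 for sgRNA4, 0.934 for sgRNA5 and 0.923 for sgRNA6. Without chromosome 19 it was 0.903, 0.907 and 0.911. For the merged lists of sgRNA1, sgRNA2 and sgRNA3 it was lower, at 0.815, 0.627 and 0.708. These correlations are descriptions: chromosome length divides both quantities, and the gene counts are those of a newer assembly than the peaks.

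**Figure D1:**
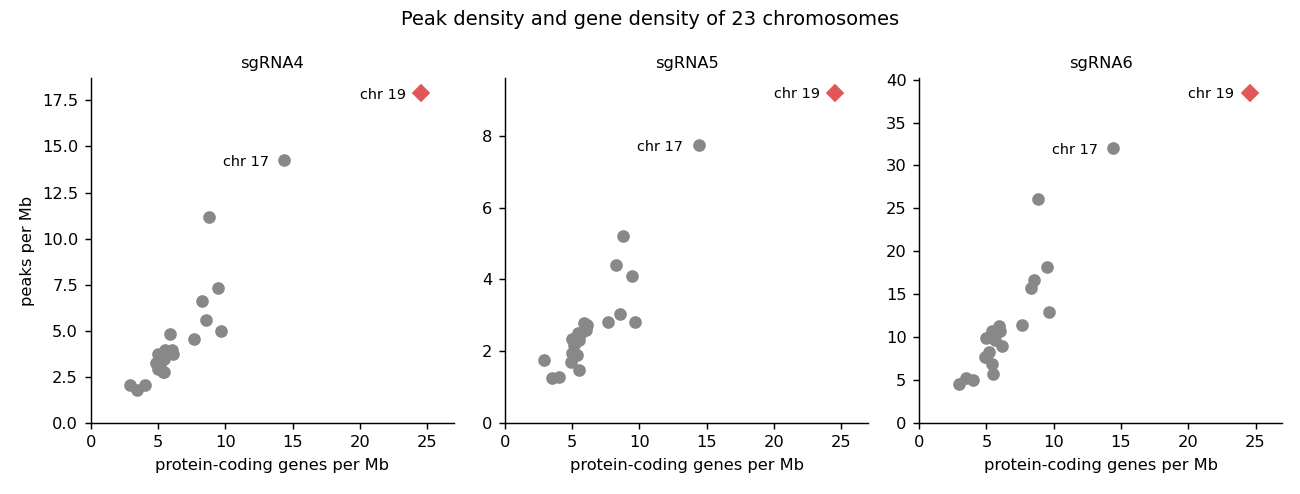
Peaks per Mb (y axis) against protein-coding genes per Mb (x axis) for chromosomes 1 to 22 and X with sgRNA4, sgRNA5 and sgRNA6; each point is 1 chromosome and the red diamond is chromosome 19. Chromosome 19 lies at the upper right in each panel with 17.9, 9.21 and 38.5 peaks per Mb, while its ratio to chromosome 17 is smaller for peaks than for genes.

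Chromosome 17, the chromosome next in gene density, was the closest comparison. The density on chromosome 19 was 1.26 times that on chromosome 17 with sgRNA4, 1.19 times with sgRNA5 and 1.20 times with sgRNA6. It was 1.04 times with sgRNA1, 0.703 times with sgRNA2 and 0.981 times with sgRNA3, replicates merged. The mean log2 ratio over guides was 0.06 ± 0.31 (SD, n = 6), which did not stand out from the scatter of the 6 guides around 0 (exact sign-flip permutation test, two-sided, p = 0.594, adjusted p = 0.688). This direction turned when covered length replaced the number of peaks (mean log2 ratio -0.16). Tests of this kind over guides number 7; p-values were adjusted over these by the Benjamini-Hochberg method, 6 guides cannot give an unadjusted p below 0.0312, and none had an adjusted p under 0.05. The sign-flip test of the proximal zinc finger span, at that lowest p, had an adjusted p of 0.219. A difference in 1 test alone therefore could not pass after adjustment.

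Peaks were spread over most of the chromosome but very unevenly (plot of peaks by 1 Mb bin). The last of the 60 bins of 1 Mb covered only 0.088 Mb, yet held 9 sgRNA6, 5 sgRNA4 and 4 sgRNA5 peaks. Of all 60 bins, 55 held a peak within any 1 of the 3 long lists, and 34 with sgRNA1 replicate 2. The 55 were not quite the same bins: that from 22 to 23 Mb held a peak with sgRNA5 but not with sgRNA4 or sgRNA6, and that from 24 to 25 Mb the reverse. The median bin held 36.5 sgRNA6, 16 sgRNA4 and 9 sgRNA5 peaks, and the fullest held 136, 91 and 31. The 5 fullest bins held 20.7% of sgRNA6, 24.6% of sgRNA4 and 22.1% of sgRNA5 peaks. Bins that were full with 1 guide tended to be full with another: across the 60 bins, Pearson's r was 0.942 and Spearman's rho 0.958 between sgRNA4 and sgRNA6, 0.767 and 0.847 between sgRNA5 and sgRNA6, and 0.754 and 0.882 between sgRNA4 and sgRNA5. The pooled counts of sgRNA1 to sgRNA3 had rho 0.532 to sgRNA6, 0.615 to sgRNA4 and 0.642 to sgRNA5. All these bins share 1 chromosome, 1 cell line and the same empty stretches, and no test was made.

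**Figure D2:**
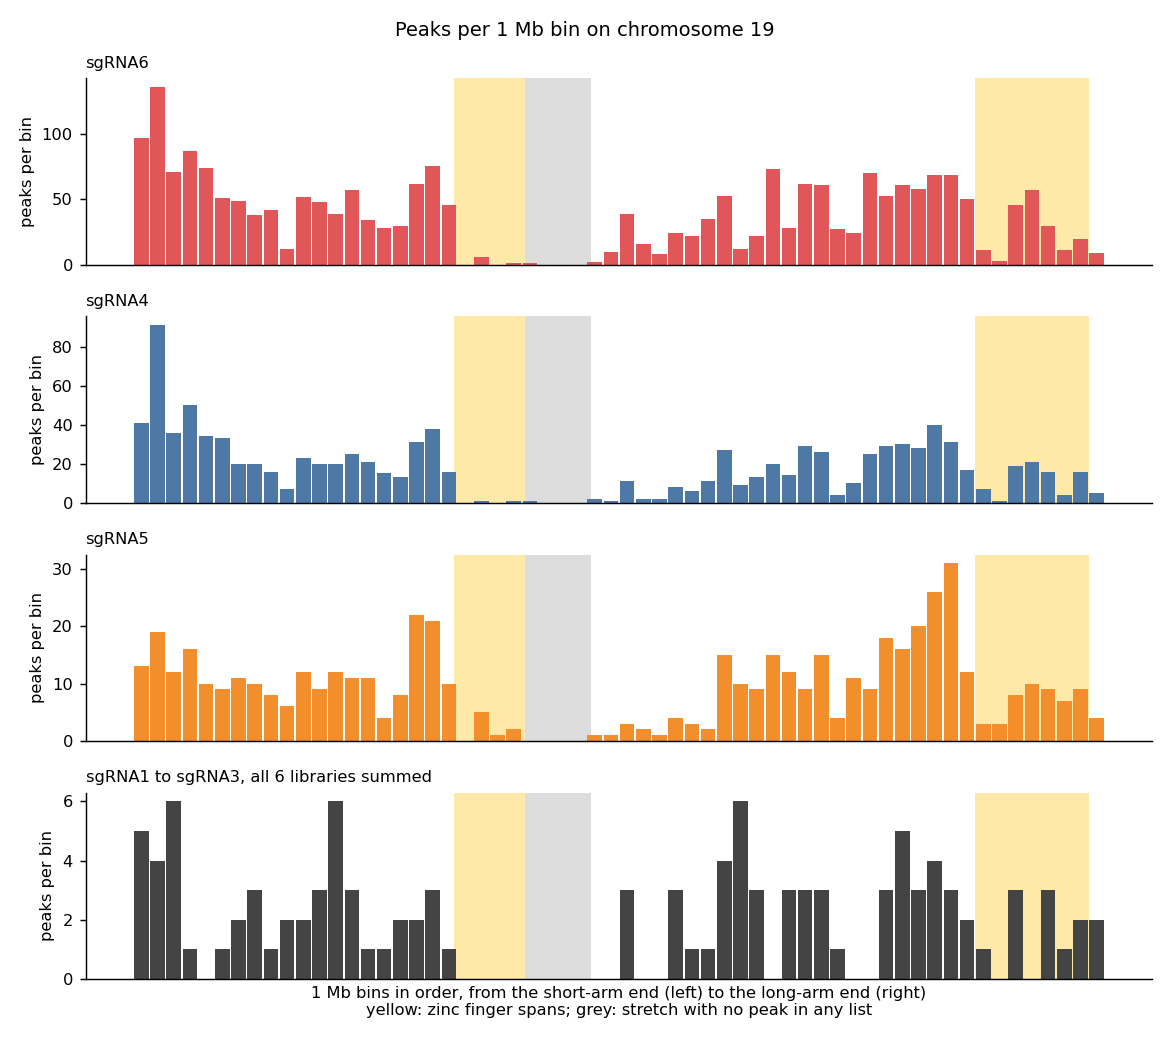
Peaks (y axis, number per 1 Mb bin, by peak centre) in bins ordered along chromosome 19 (x axis) for sgRNA6, sgRNA4, sgRNA5 and the 6 libraries of sgRNA1 to sgRNA3 summed; y scales differ. Yellow marks the zinc finger spans and grey the stretch without a peak in any list; the proximal span is almost empty in every panel, and the fullest bins reach 136, 91 and 31 peaks with sgRNA6, sgRNA4 and sgRNA5.

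The guides did not fill the same bins most. With sgRNA6 and sgRNA4 the fullest bin was that from 1 to 2 Mb, with 136 and 91 peaks, and sgRNA5 had 19 there. With sgRNA5 the fullest was that from 50 to 51 Mb, with 31 peaks, beside 31 with sgRNA4 and 69 with sgRNA6. For sgRNA4 the bins from 3 to 4 Mb (50 peaks), 0 to 1 Mb (41), 49 to 50 Mb (40) and 18 to 19 Mb (38) followed. For sgRNA6 those from 0 to 1 Mb (97), 3 to 4 Mb (87), 18 to 19 Mb (76) and 4 to 5 Mb (74) followed, and for sgRNA5 those from 49 to 50 Mb (26), 17 to 18 Mb (22), 18 to 19 Mb (21) and 48 to 49 Mb (20). The dense bins of sgRNA4 and sgRNA6 thus lay mostly at the short-arm end, whereas 3 of the 5 fullest sgRNA5 bins adjoined each other on the long arm.

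The terminal 5 Mb of the short arm made up 9.09% of the length outside the empty central stretch. This tip held 252 sgRNA4 peaks (23.8% of those on the chromosome, 95% interval 21.3 to 26.5) and 465 sgRNA6 peaks (20.5%, 18.8 to 22.2), but only 70 sgRNA5 peaks (12.9%, 10.2 to 16.0). Of the 111 peaks of sgRNA1 to sgRNA3, 15 lay there (13.5%, 7.77 to 21.3). The sgRNA5 interval did not overlap those of sgRNA4 and sgRNA6; with 1 library per guide the difference has no replicate check. The last 5 Mb of the long arm, which overlap the distal zinc finger cluster, held 7.66% of sgRNA4, 8.64% of sgRNA5 and 7.61% of sgRNA6 peaks.

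The arms were split at the longest stretch with no peak in any list, from 24217156 to 28284437 (4.07 Mb), which includes the centromere. The short arm, 44.0% of the remaining length, held 54.2% of sgRNA4 peaks, 50.04% of sgRNA6 peaks and 44.5% of sgRNA5 peaks. It held 36.2% with sgRNA1, 68.2% with sgRNA2 and 40% with sgRNA3, of 69, 22 and 20 peaks. The mean excess of 4.84 percentage points (SD 11.5, n = 6) was small beside the differences among guides (exact sign-flip permutation test, p = 0.406, adjusted p = 0.569), and it was -4.29 points when only the higher-scoring 50% of each list was used. Next to the empty stretch on the long arm, the 5 bins from 28 to 33 Mb held few peaks except that from 30 to 31 Mb, with 39 sgRNA6, 11 sgRNA4 and 3 sgRNA5 peaks.

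The proximal zinc finger cluster, taken as 19.8 to 24.5 Mb, was nearly devoid of peaks. Its part before the empty stretch makes up 8.03% of the length, yet sgRNA4 had 5 of its 1057 peaks there (0.473%, 95% interval 0.154 to 1.100), sgRNA5 had 9 of 544 (1.65%, 0.759 to 3.12) and sgRNA6 had 10 of 2272 (0.440%, 0.211 to 0.808). In density this was 1.13, 2.04 and 2.26 peaks per Mb, against 22.2, 11.1 and 47.8 per Mb outside both zinc finger spans. No peak of sgRNA1, sgRNA2 or sgRNA3 lay there. A count of 0 allows a share of up to 4.35% for sgRNA1 but 13.6% for sgRNA2 and 15% for sgRNA3, so that a deficit was not detectable for the last 2 at this number of peaks.

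The share of peaks in the proximal span was below its share of length with all 6 guides (mean difference -7.60 percentage points, SD 0.641, n = 6). The exact sign-flip permutation test gave p = 0.0312, the smallest that 6 guides allow, and 0.219 after adjustment over the 7 tests. Its outcome leans on sgRNA1, sgRNA2 and sgRNA3, which all enter at -8.03 because they had no peak there, the lowest value possible, and which also keep the SD small. The guides with peaks in the span differed by -7.56 points (sgRNA4), -6.37 (sgRNA5) and -7.59 (sgRNA6), and their intervals above lie below the share of length. It was -6.40 points with the span limits moved inwards by 500 kb and -17.3 points against the short arm alone. With peaks found by 1 guide only, sgRNA2 dropped out for lack of such peaks, and the exact p over the other 5 guides was 0.0625, the smallest they allow. The fall in density was abrupt: the bin from 18 to 19 Mb held 76 sgRNA6, 38 sgRNA4 and 21 sgRNA5 peaks, that from 19 to 20 Mb 46, 16 and 10, and that from 20 to 21 Mb none in any list. Of the 60 bins, 4 were empty in all lists, the others being the 3 from 25 to 28 Mb. After the central stretch, the longest gap without a peak lay between a peak end at 19887819 and a peak start at 21264778, 1377 kb apart, and the next 2, of 849 and 633 kb, also lay in this cluster.

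The 24 peaks in the proximal span formed 18 separate regions, 13 found with 1 guide, 4 with 2 and 1 with 3. The region found with 3 guides lay at its outer edge, at 19886705 to 19887819, and scored 249 with sgRNA6, 106 with sgRNA4 and 65.0 with sgRNA5. The score is the value the authors deposited for each peak, with none under 50 in any list, and it ranks peaks within 1 list only. Peaks of sgRNA5 were scattered through the cluster. Its highest one there, at 21264778 to 21265470, scored 130.4 (rank 648 of 8346) and had no counterpart with another guide. Deeper inside, a peak at 23432437 to 23433346 scored 216 with sgRNA6 (rank 4643 of 33611) and overlapped one of score 63.0 with sgRNA5. At the inner edge, peaks at 24216410 to 24217042 with sgRNA6 (63.1) and at 24216515 to 24217155 with sgRNA4 (70.2) overlapped. Outside these, between 20 and 24 Mb, sgRNA4 had 2 peaks, of scores 59.1 and 53.1. In the bin from 21 to 22 Mb, sgRNA5 had 5 peaks and sgRNA6 6, although the sgRNA6 list was the longer one by far.

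The distal cluster, from 52 to 59 Mb, was thinned rather than empty. This span also contains the leukocyte receptor complex and other gene families. It makes up 12.7% of the length and held 84 sgRNA4 peaks (7.95%, 95% interval 6.39 to 9.74), 49 sgRNA5 peaks (9.01%, 6.74 to 11.7) and 178 sgRNA6 peaks (7.83%, 6.76 to 9.02). The share was 8.70% for sgRNA1, 4.55% for sgRNA2 and 15% for sgRNA3, on 6, 1 and 3 peaks. It was below the share of length with 5 of 6 guides, sgRNA3 being the exception (mean difference -3.88 points, SD 3.41, n = 6; exact sign-flip permutation test, p = 0.0625, adjusted p = 0.219). In the settings where this mean turned positive, it did so through sgRNA3 alone. With the higher-scoring 50% of each list it was 0.422 points, with sgRNA3 at 28.6% of 7 peaks and the other 5 guides below the share of length. With unshared peaks only it was 1.09 points, with sgRNA3 at 33.3% of 3 peaks, sgRNA1 on 8 peaks and sgRNA2 left out.

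Within the distal cluster the bins differed widely. The bin from 53 to 54 Mb held 1 sgRNA4, 3 sgRNA5 and 3 sgRNA6 peaks, and that from 57 to 58 Mb held 4, 7 and 11. Between them, the bin from 55 to 56 Mb held 21, 10 and 57, above the median bin of the chromosome with each of these guides. The low bins of the distal cluster therefore approached the values of the proximal one, and its high bins did not. The highest peaks in it were at 55967290 to 55968203 with sgRNA4 (score 1103, rank 16 of 13660, no other guide), at 57078241 to 57079171 with sgRNA5 (score 220, rank 105, no other guide) and at 52190865 to 52193141 with sgRNA6 (score 714, rank 298), the last overlapping sgRNA4 peaks of 143 and 117.

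**Figure D3:**
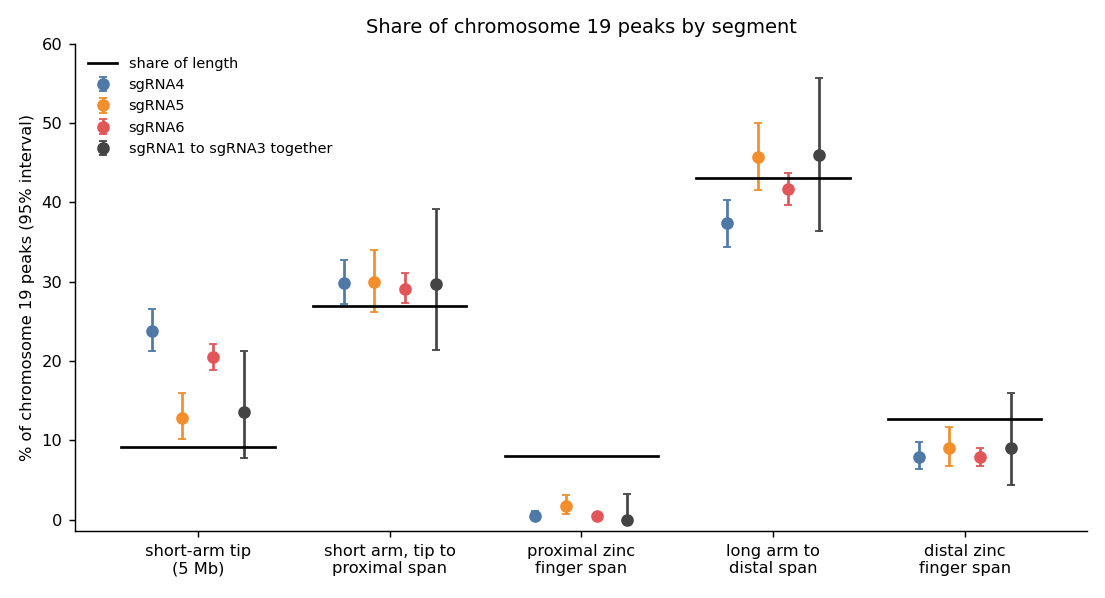
Percent of chromosome 19 peaks (y axis, 95% exact binomial intervals) in 5 segments of the chromosome (x axis) for sgRNA4, sgRNA5, sgRNA6 and the merged lists of sgRNA1 to sgRNA3 together; black lines are the share of length. In the proximal zinc finger span all points lie at or under 1.65% beside a length share of 8.03%, and in the short-arm tip sgRNA4 (23.8%) and sgRNA6 (20.5%) stand above sgRNA5 (12.9%).

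Sharing, meaning an overlap of at least 1 bp with a peak of another guide, ranged from 29.1% of chromosome 19 peaks with sgRNA6 to 22 of 22 with sgRNA2, and followed the share over the whole list of each guide. With sgRNA4, 518 of 1057 chromosome 19 peaks were shared (49.0%), beside 53.1% of its peaks on all chromosomes. With sgRNA5 it was 371 of 544 (68.2%, all chromosomes 65.1%), and with sgRNA6 661 of 2272 (29.1%, all 27.1%). For the merged lists of the replicated guides it was 61 of 69 with sgRNA1 (88.4%, all 84.6%), 22 of 22 with sgRNA2 (all 92.2%) and 17 of 20 with sgRNA3 (85%, all 78.6%). Against the other chromosomes, the share was higher on chromosome 19 with 5 of 6 guides, by between 2.13 points (sgRNA6) and 8.14 points (sgRNA2), and differed by -4.39 points with sgRNA4. The mean difference was 3.32 points (SD 4.39, n = 6), less than the SD over guides (exact sign-flip permutation test, p = 0.156, adjusted p = 0.273). The lists overlap one another, so the 6 values are not fully independent. A higher share was not particular to chromosome 19. With each guide, chromosome 17 also lay above the chromosomes other than 19. Its shares were 85.7, 97.7, 85.7, 55.4, 71.8 and 29.8% for sgRNA1 to sgRNA6 in order. With sgRNA4, sgRNA5 and sgRNA6, chromosome 19 had 4.22, 3.51 and 3.65 times the peaks per Mb of the other chromosomes without Y. Denser peaks can be overlapped more easily, and the part of density in these shares was not tested.

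The direction of this difference turned with score. When the lists were restricted to the 50% of peaks with higher scores, chromosome 19 peaks were shared less often than others with 5 of 6 guides (mean difference -6.28 points; exact sign-flip permutation test, p = 0.125). The values were 40.2% against 50.7% with sgRNA4, 61.7% against 66.5% with sgRNA5 and 23.3% against 26.5% with sgRNA6. For sgRNA1, sgRNA2 and sgRNA3 the differences were -3.82, -19.9 and 4.69 points, on 26, 10 and 7 chromosome 19 peaks. Without replicate 2 the mean over all peaks was 11.9 points, on the 1 or 2 replicate 1 peaks per guide. Among the 10% of peaks with the highest scores, 63.9% of those on chromosome 19 were shared with sgRNA4 and 68.7% of those elsewhere. The same comparison gave 80.4% and 91.3% with sgRNA5, and 48.5% and 55.7% with sgRNA6; these last values were not tested.

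**Figure D4:**
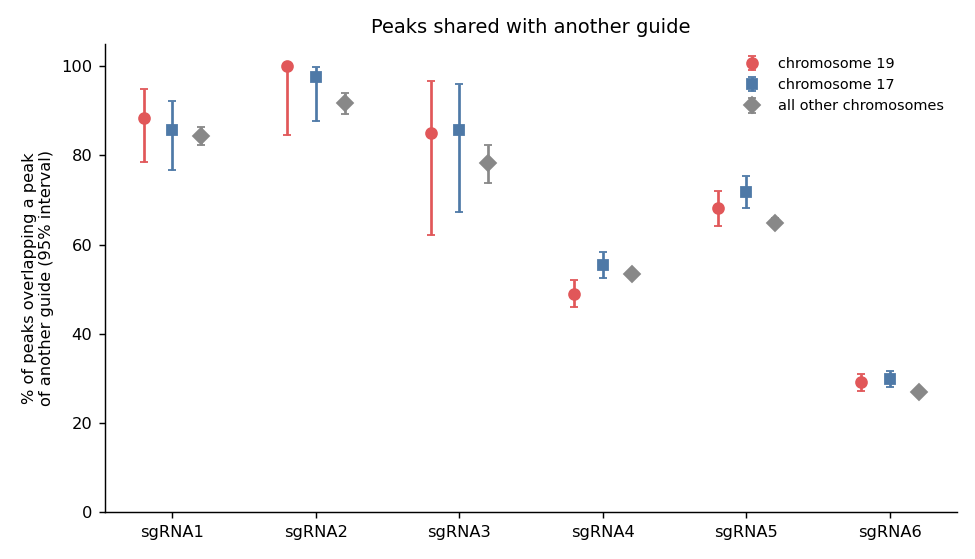
Percent of peaks overlapping a peak of another guide (y axis, 95% exact binomial intervals) for each guide (x axis, replicates merged) on chromosome 19, on chromosome 17 and on all chromosomes other than 19. With sgRNA4 the chromosome 19 value (49.0%) is under that of chromosome 17 (55.4%), and for the other guides the intervals of these 2 chromosomes overlap. The low sgRNA4 value is not particular to chromosome 19: chromosome 22, not drawn, also had 49.0%.

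Shared peaks scored higher and were wider. On chromosome 19 the median score was 109 for shared and 83.8 for unshared sgRNA6 peaks, 80.5 and 67.2 for sgRNA4, and 70.4 and 61.7 for sgRNA5. Median widths were 805 and 642 bp with sgRNA6, 827.5 and 680 bp with sgRNA4, and 694 and 553 bp with sgRNA5. A wider peak can be overlapped more easily, and the part of width in these shares was not tested.

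Pairs of guides overlapped by very different shares on chromosome 19, and the longer list of each pair that overlapped had the smaller share. Of 1057 sgRNA4 peaks 44.5% overlapped sgRNA6, and of 2272 sgRNA6 peaks 21.1% overlapped sgRNA4. Of 544 sgRNA5 peaks 57.7% overlapped sgRNA6 and 35.8% overlapped sgRNA4, and 14.3% and 18.5% of the peaks of those lists overlapped sgRNA5. Elsewhere in the genome the sgRNA4 share found with sgRNA5 was 23.4%, and with sgRNA6 48.6%. Among the short lists, 5 of 69 sgRNA1 peaks overlapped sgRNA2 (7.25%, other chromosomes 13.3%), 3 overlapped sgRNA3 (4.35%, other chromosomes 7.72%), and no sgRNA2 peak overlapped sgRNA3. For the last pair, 0 of 22 and 0 of 20 allow shares of up to 13.6% and 15%, and the shares on other chromosomes were 9.15% and 14.2%.

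Merging all lists gave 3007 regions on chromosome 19, 6.92% of the 43438 in the genome. Of these, 2334 (77.6%) were found with 1 guide, 479 with 2, 160 with 3, 30 with 4 and 4 with 5. Regions found with 4 or more guides made up 1.13% on chromosome 19 and 1.99% elsewhere, so that chromosome 19 had 4.05% of all such regions and 1.92% of those with 5 or more. Every such region must include sgRNA1, sgRNA2 or sgRNA3. Chromosome 19 held 5.15, 3.59 and 4.93% of their merged lists on chromosomes 1 to 22 and X. The 4.05% lies within the range of these shares, and the part of the short lists in it was not tested. None of the 26 regions found with all 6 guides lay on chromosome 19. This count allows a share of up to 11.5% and so does not separate it from 6.92% or from the lower shares above. Of the 34 regions with 4 or more guides, 23 lay on the long arm and 11 on the short arm, which held 1473 and 1534 of all 3007 regions. The merged lists of sgRNA1 to sgRNA3 had 63 and 48 peaks there. The distal cluster had 4 of the 34 and 235 of all regions. The proximal cluster had none, and with only 18 regions in all this count says nothing about it. Combinations of the long lists had shares near those elsewhere. There were 286 regions with sgRNA4 and sgRNA6 alone (9.51%, elsewhere 8.01%), 138 with sgRNA5 and sgRNA6 alone (4.59%, elsewhere 4.09%), 123 with all 3 of these guides (4.09%, elsewhere 4.197%), and 34 with sgRNA4 and sgRNA5 alone (1.13%, elsewhere 1.03%).

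The 4 regions found with 5 guides each lacked either sgRNA2 or sgRNA3. The region at 587889 to 589022 scored 69.1 with sgRNA2 replicate 2, 67.5 with sgRNA1 replicate 2, 62.8 with sgRNA4, 91.9 with sgRNA5 and 155 with sgRNA6. That at 12991489 to 12992890 scored 51.5, 73.0, 53.0, 173 and 174 in the same lists. The sgRNA5 peak of the second ranked 243 of 8346, and its sgRNA4 peak 12403 of 13660. The other two lay on the long arm and included sgRNA3 replicate 2. At 36207049 to 36208780 the scores were 69.6 with sgRNA1, 60.3 with sgRNA3, 154 with sgRNA4, 54.4 with sgRNA5 and 596 with sgRNA6. At 38396667 to 38398086 they were 50.8, 51.7, 84.1, 241 and 510. The same region could thus be near the score floor in 1 list and in the top few percent of another.

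The 6 named regions with 4 guides were picked, from the 30 found with 4 guides, for the highest mean score percentile. Their high percentiles are therefore no finding. The region at 40948608 to 40950914 reached a mean percentile of 89.8 with sgRNA3 (71.4), sgRNA4 (203), sgRNA5 (139.9) and sgRNA6 (455). Near the long-arm end, the region at 58986400 to 58988307 scored 75.3 with sgRNA1, 262 with sgRNA4, 103 with sgRNA5 and 266 with sgRNA6. At 1039654 to 1040568 the scores were 62.3 with sgRNA2, 119 with sgRNA4, 188 with sgRNA5 and 457 with sgRNA6. Regions at 38146125 to 38147447 and at 41118785 to 41121146 were found with sgRNA1 and the 3 long lists. That at 47776167 to 47777773 held the single chromosome 19 peak of sgRNA2 replicate 1 (53.5) together with peaks of 278, 107 and 215 with sgRNA4, sgRNA5 and sgRNA6, and none in sgRNA2 replicate 2.

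By score, chromosome 19 peaks were ordinary or low within their lists (plot of score rank by list). Their mean percentile, where 50 is the middle of a list, was 47.6 with sgRNA4, 51.1 with sgRNA5 and 49.2 with sgRNA6. In replicate 2 it was 41.0 with sgRNA1, 42.1 with sgRNA2 and 44.6 with sgRNA3. The 4 replicate 1 peaks had mean percentiles of 28.1, 29.3 and 19.5 for these guides. Compared with the other chromosomes the mean difference over guides, with replicates averaged, was -8.81 percentile points (SD 8.97, n = 6), lower with 5 of 6 guides; this was about as large as the SD (exact sign-flip permutation test, p = 0.0938, adjusted p = 0.219). It was -4.34 without replicate 1. Within the higher-scoring 50% of the lists it was lower with 6 of 6 guides (mean difference -7.17 percentile points; unadjusted exact sign-flip permutation p = 0.0312, the smallest that 6 guides allow). There the differences were -4.43, -1.10 and -2.03 points with sgRNA4, sgRNA5 and sgRNA6. With sgRNA1, sgRNA2 and sgRNA3 they were -12.4, -14.4 and -8.64 points, on 26, 10 and 7 chromosome 19 peaks, all of replicate 2.

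Among the highest-scoring 10% of the long lists, chromosome 19 was less frequent than over the whole lists. It had 72 of the 1366 highest-scoring 10% of sgRNA4 peaks (5.27%), 46 of 835 with sgRNA5 (5.51%) and 198 of 3362 with sgRNA6 (5.89%), each below its share of the whole list. No interval was taken for these shares and they were not tested, so a deficit beyond counting error is not shown for each list. In replicate 2 it had 5 of 128 with sgRNA1 and none of 57 or 39 with sgRNA2 and sgRNA3, counts that allow up to 5.26% and 7.69% and so do not show a deficit. Among the 100 highest peaks of a list there were 5, 3 and 6 with sgRNA4, sgRNA5 and sgRNA6, beside whole-list shares of 7.74%, 6.52% and 6.76%. Within the chromosome, sgRNA5 peaks had a mean percentile of 54.7 on the long arm and 46.5 on the short arm, and sgRNA4 peaks of 49.1 and 46.4.

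**Figure D5:**
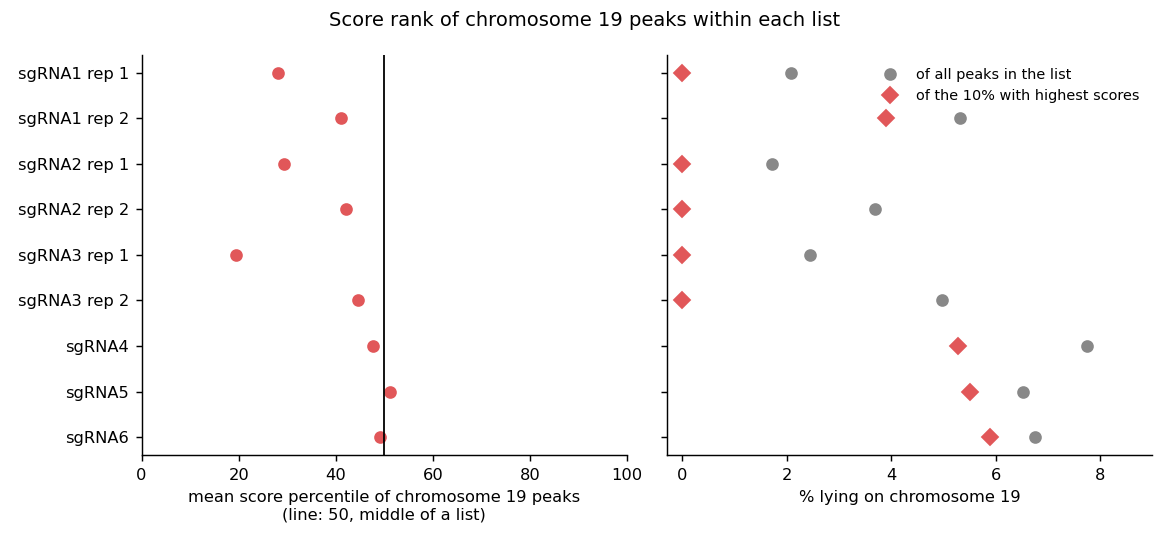
Left, mean score percentile of chromosome 19 peaks (x axis) within each of the 9 lists (y axis); right, percent lying on chromosome 19 among all peaks of a list (grey circles) and among the 10% with the highest scores (red diamonds). Every list except sgRNA5 has a mean under 50, and with sgRNA4, sgRNA5 and sgRNA6 the red diamond (5.27%, 5.51%, 5.89%) lies left of the grey circle; 5 diamonds at 0 rest on only 10, 6, 5, 57 and 39 top peaks and show no difference.

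Individual peaks nevertheless reached the top of their lists, most of them with 1 guide alone. The highest sgRNA4 peak of the whole genome lay at 1768687 to 1769547 (score 2436) and overlapped no peak of another guide. The next 4 sgRNA4 peaks included those at 2712745 to 2714583 (1327, rank 13), at 2433646 to 2434493 (647, rank 55) and at 46268059 to 46269501 (514, rank 81), besides the distal peak of rank 16 given above. The peak at 46268059 overlapped a sgRNA5 peak of 50.9. All 5 of the highest sgRNA6 peaks were found with that guide alone: at 426062 to 427039 (3100, rank 4 of 33611), 3677513 to 3679444 (2019), 1394030 to 1395203 (1838), 31306582 to 31307823 (1703) and 47219691 to 47221306 (1192). The score of exactly 3100 is held by more than 1 peak of that list, so the order among those is not resolved.

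The highest sgRNA5 peaks were lower and mostly shared. Those at 44172128 to 44173458 (269, rank 56 of 8346), 41256102 to 41256888 (230.2, rank 90) and 11545548 to 11546714 (215, rank 114) each overlapped peaks of 2 other guides, and that inside the region at 38396667 given above (241, rank 79) overlapped peaks of 4. The peak at 41256102 was also the counterpart of a sgRNA1 replicate 2 peak of 121, rank 67 of 1278. On chromosome 19, 68.2% of all sgRNA5 peaks were shared, and 80.4% of those among the highest-scoring 10% of the list. These shares were 49.0% and 63.9% with sgRNA4, and 29.1% and 48.5% with sgRNA6. The lists thus differed in sharing over all their peaks, and not at the top alone. Sharing fell with list length, from 544 chromosome 19 peaks with sgRNA5 to 1057 with sgRNA4 and 2272 with sgRNA6. The part of list length in this difference was not tested. No chromosome 19 peak of sgRNA5 scored above 269, whereas 5 sgRNA4 and 51 sgRNA6 peaks scored above 500. Scores of different lists are not on a common scale, so this describes each list and does not rank the guides.

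Of the 4 replicate 1 peaks on chromosome 19, 1 was found again in replicate 2 of its guide. That sgRNA1 peak, at 359913 to 361567 in replicate 2 (score 168, rank 22 of 1278) and at 360610 to 361205 in replicate 1 (52.7, rank 67 of 96), was also the highest of its chromosome in replicate 2 and overlapped no peak of another guide. Over all chromosomes, the share of replicate 1 peaks that recurred was 36.5% for sgRNA1, 27.6% for sgRNA2 and 41.5% for sgRNA3, and 4 peaks are too few to tell a difference from this. The sgRNA3 replicate 1 peak at 2713662 to 2714267 (54.7) was absent from sgRNA3 replicate 2 but fell inside the sgRNA4 peak of rank 13 and overlapped a sgRNA6 peak of 64.5. The highest replicate 2 peaks of sgRNA2, at 36618396 to 36619437 (79.6), and of sgRNA3, at 42746964 to 42747739 (85.9), overlapped peaks of 2 and 3 other guides.

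Peak widths on chromosome 19 followed those of the lists. Medians were 756 bp with sgRNA4, 648 bp with sgRNA5 and 681 bp with sgRNA6, beside 750, 627 and 668 bp elsewhere. With sgRNA1, sgRNA2 and sgRNA3 they were 694, 741 and 671 bp beside 711.5, 802 and 679.5 bp. The mean log2 ratio was -0.01 ± 0.06 (SD, n = 6; exact sign-flip permutation test, p = 0.688, adjusted p = 0.688). On chromosome 17 the medians were larger with each guide, between 693 and 972 bp. Peaks at least 2000 bp wide made up 7 of 1057 with sgRNA4 (0.662%, all chromosomes 1.22%), 11 of 2272 with sgRNA6 (0.484%, all 0.901%) and 0 of 544 with sgRNA5, which allows up to 0.551% (all 0.419%). The 3 widest were sgRNA6 peaks, at 1575985 to 1579125 (3141 bp), 50378954 to 50381913 (2960 bp) and 3457242 to 3460169 (2928 bp). Neighbouring sgRNA6 peaks lay a median of 9.82 kb apart, sgRNA4 peaks 17.7 kb and sgRNA5 peaks 46.8 kb, and 320, 88 and 26 neighbours were within 1000 bp of each other.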

How the data were processed

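The deposited files list peaks of 9 ChIP-seq libraries by chromosome, start, end, name and score. The submitters' processing notes name Bowtie, Bowtie2, MACS and build hg19, with parameters not given in the sources used here. Each peak carries a score deposited by the authors; coordinates (hg19) are printed counted from 1. Lists are per library, so a peak's presence depends on an unknown read depth. Nothing in the labels says that replicates were separate cultures, so the spread between them may be technical.

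Replicates of a guide were merged where peaks overlapped by 1 bp or more. Chromosome lengths run to the end of the last peak found, 59088007 for chromosome 19. Peaks were assigned to 1 Mb bins by their centre. Guides were the units of the sign-flip tests, since peaks are not replicates. Score percentiles were taken within a library and averaged over replicates. Intervals of shares are exact Clopper-Pearson 95% intervals, and the limit for a count of 0 is 3 counts; both cover counting error only. Named regions were the 5 highest peaks of sgRNA4 to sgRNA6, the peaks in both replicates and the highest replicate 2 peak of sgRNA1 to sgRNA3, the 10 regions with most guides, the highest peaks of both zinc finger spans, the 5 fullest and the empty bins and the 3 widest peaks. Ties among regions with equally many guides were broken by mean score percentile. The peaks in the proximal span and the replicate 1 peaks were named in full after their values were seen. Members, spans and rules were chosen with earlier results of these data known.

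Gene numbers per chromosome came from RefSeq's table for GRCh38.p14, used for names and chromosomes only; no genome or annotation of hg19 was used, so peaks are given by position without genes or sequence. Overlap calls were checked by brute force on simulated lists, with 0 of 1920 wrong. Alternatives are listed in the closing section. Python 3.11.15, numpy 2.4.6, pandas 2.3.3, scipy 1.17.1 and matplotlib 3.10.9 were used. The 3 other samples (dCas9 alone, and amplicons with wild-type Cas9) were not analysed here.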

Additional observations from a re-analysis of the deposited data

How the results depend on the processing

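Of 44 alternative values for 8 results, all planned, 34 kept the direction and the side of an unadjusted exact p of 0.05. The chromosome 19 share among sgRNA1 to sgRNA3 has no direction, and its exact permutation test could not give a p below 0.0667. The 34 thus include values that could not change side, as well as the proximal span with a replicate left out. With the higher-scoring 50% of each list, the mean difference turned for sharing (-6.28 points), density against chromosome 17 (log2 ratio -0.158), the distal span (0.422 points) and the short arm (-4.29 points), and the score difference (-7.17) passed that limit. Density against chromosome 17 also turned with covered length (-0.163). With unshared peaks only, 5 guides were left, and the distal difference was 1.09 and the proximal one -7.28. Leaving out replicate 1 or replicate 2 gave -0.0608 to 0.0632 for density against chromosome 17, -8.59 to -3.70 for the distal span (unadjusted exact p = 0.0312 without replicate 2), -13.3 to -4.34 for score and 2.03 to 11.9 for sharing. The proximal deficit was -7.60 with either replicate left out. That value could not change, since sgRNA1 to sgRNA3 had no proximal peak in either replicate. For sgRNA4 to sgRNA6 the single library stayed in. Means over guides weight the lists of 20 to 69 chromosome 19 peaks like those of 544 to 2272, and in the distal span both turns came with sgRNA3. With the replicate block, the exact permutation p for the chromosome 19 share among sgRNA1 to sgRNA3 was 0.333, against 0.733 without it; the labels give the replicates a number only.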

Other observations

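The ratio between the long lists varied widely from bin to bin; the bins named here are the ends of that spread, picked after their values were seen and not tested. Among the 48 bins with at least 10 sgRNA6 peaks, the median bin held 0.228 sgRNA5 peaks for each sgRNA6 peak. The bin from 37 to 38 Mb held 0.833, with 10 sgRNA5, 9 sgRNA4 and 12 sgRNA6 peaks, and it also held 6 peaks of the sgRNA1 to sgRNA3 libraries, as many as any bin. The long arm carries further zinc finger clusters outside the spans described above. At the other extreme, the bin from 35 to 36 Mb held 35 sgRNA6 peaks and 2 sgRNA5 peaks. For sgRNA4 the median was 0.454 peaks for each sgRNA6 peak, with the lowest value, 0.1, from 29 to 30 Mb and the highest, 0.8, from 58 to 59 Mb.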
